A study of Oryza sativa with 8 samples.

Results

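The shoots of 2 rice varieties, Varadan and Prasanna, were compared on oligonucleotide arrays under supplemented nitrogen only. The comparison was set by the sample titles and took 4 of the 8 arrays of the series, the 2 arrays of Varadan and the 2 arrays of Prasanna whose nitrogen level is labelled supplemented. The labels give each variety by name alone, with no transgene, mutation or other agent for either. In both groups, seed was germinated for 7 days on moist filter paper, moved to Yoshida medium, a standard hydroponic rice solution, with nitrogen for 10 days, and then to Yoshida medium with supplemented nitrogen. The labels call the shoots 14 days old, which is shorter than these periods together, and they give neither the length of the last step nor the concentration behind the title code 100. The other 4 arrays, 2 of each variety, came from seedlings whose last medium held no nitrogen. They entered the filter and the estimate of spread of the fit. They are set beside the results where the same variety difference in other arrays is useful. The labels do not say whether replicate arrays came from separate plants or cultures, so p-values measure the spread between these arrays, which may be technical.

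Rice varieties differ in the sequence, copy number and activity of many genes, and a variety contrast in 1 tissue under 1 medium reads the sum of these differences at the level of RNA. In the rice shoot, well supplied nitrogen goes mostly into the photosynthetic apparatus after nitrate is reduced and ammonium is assimilated into glutamine. Rice shoots also make labdane-related diterpenoid phytoalexins, antimicrobial compounds of the momilactone and phytocassane families, whose biosynthetic genes lie together in clusters and are induced by infection and stress. An array probe reports how much RNA binds to a fixed sequence, so a variety whose gene is deleted or diverged at the probe gives a low signal as does one that makes little of the transcript.

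Over the tested probe sets the Spearman correlation between replicates was 0.940 for Prasanna and 0.939 for Varadan with supplemented nitrogen, against 0.889 to 0.901 between arrays of different varieties. Without nitrogen the correlation between replicates was lower, at 0.8965 for Prasanna and 0.8863 for Varadan. Those less even arrays also enter the estimate of spread behind the calls. The tissue label was met by its shoot markers. The 10 shoot mesophyll genes, among them Rubisco small subunits and antenna proteins, were bright. Their mean log2 signal was 15.1 and 15.3 in Prasanna and 15.8 and 15.6 in Varadan. The mean of the 4 root genes was 7.06 and 6.88 in Prasanna and 7.2 and 8.01 in Varadan. The root genes were not all dim. NIP2-1 had 10.31 and 10.10 in Prasanna and 9.98 and 9.64 in Varadan. RAA1 had 6.66 and 6.34 in Prasanna and 7.25 and 9.10 in Varadan. QHB and WOX11 were dimmer than NIP2-1 in every array. Some measures of RNA integrity moved with variety. The 3′ minus 5′ log2 difference of 1 GAPDH control was 2.93 and 2.77 in Prasanna and 4.24 and 4.78 in Varadan, and that of the ubiquitin control was 0.32 and 0.34 in Prasanna and 0.67 and 0.73 in Varadan. The cyclophilin control also separated the varieties, by less, with 1.17 and 1.24 in Prasanna and 1.33 and 1.62 in Varadan. Without nitrogen, the first GAPDH control again did so, with 2.79 and 2.77 in Prasanna and 4.11 and 3.87 in Varadan. The other GAPDH control did not separate the varieties, with 1.52 and 3.0 in Prasanna and 0.87 and 2.48 in Varadan. Its 5′ log2 signals were very low, at 1.14 and 1.74 in Prasanna and 1.49 and 1.91 in Varadan. That difference is therefore not dependable. Neither actin control separated the varieties. The one with the brighter 5′ signals had 4.76 and 4.89 in Prasanna and 4.74 and 5.01 in Varadan. The ubiquitin difference did not separate the varieties without nitrogen. The CreX control, a bright spike, had mean log2 signals of 16.21 and 15.63 in Prasanna and 16.82 and 16.27 in Varadan. Without nitrogen it overlapped, at 15.79 and 15.41 in Prasanna and 15.42 and 15.77 in Varadan. The BioB, BioC and BioDn spikes overlapped with supplemented nitrogen. The median log2 signal of the arrays was 6.01 and 5.72 in Prasanna and 6.26 and 6.04 in Varadan. The part of these control and array differences in the results below was not tested.

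Read at 1 probe set per gene, 154 of 21510 tested loci were called at an adjusted p under 0.05, which is 0.716% of those tested. Of these, 100 were higher in Varadan, 0.465% of the tested loci, and 54 were lower, 0.251%. The signals of the 2 varieties did not overlap at any of the 154, whereas over all tested loci both Varadan arrays were above both Prasanna arrays at 22.3% and below both at 22.5%. The differences were large, with a median absolute log2 difference of 4.52 for the higher loci, from 1.78 to 11.46, and of 4.44 for the lower loci, from 1.61 to 10.66. Over all tested loci the median difference was -0.01 on the log2 scale. In limma, 1585 of the 21510 tested loci had an unadjusted p under 0.05, 856 higher and 729 lower in Varadan. Counts at that level in the gene lists below are to be read against this background.

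Many called loci were near the bottom of the scale in 1 variety. Both Prasanna arrays were below a signal of 22.3, the level used to filter dim probe sets, at 30 of the 100 higher loci, and both Varadan arrays were below it at 14 of the 54 lower loci. Signals that low have no dependable order, so folds for such loci are given below as lower bounds after raising every signal under 22.3 to that level. With this floor, the median absolute log2 difference was 4.10 for the higher and 4.14 for the lower loci. The call rests on how much of the spread is pooled: the fit on the 4 supplemented-nitrogen arrays alone called 557 loci, 2.59% of those tested, and these held 149 of the 154. Leaving out 1 array also moved the count, to 54 and 53 loci without Prasanna replicates 1 and 2 and to 38 and 23 without Varadan replicates 1 and 2, where the remaining array of that variety was assumed to vary as the other groups did. The balance of directions turned with the array left out. There were 42 higher and 12 lower loci without Prasanna replicate 1 and 40 and 13 without Prasanna replicate 2, but 15 higher and 23 lower without Varadan replicate 1 and 6 and 17 without Varadan replicate 2.

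**Figure D1:**
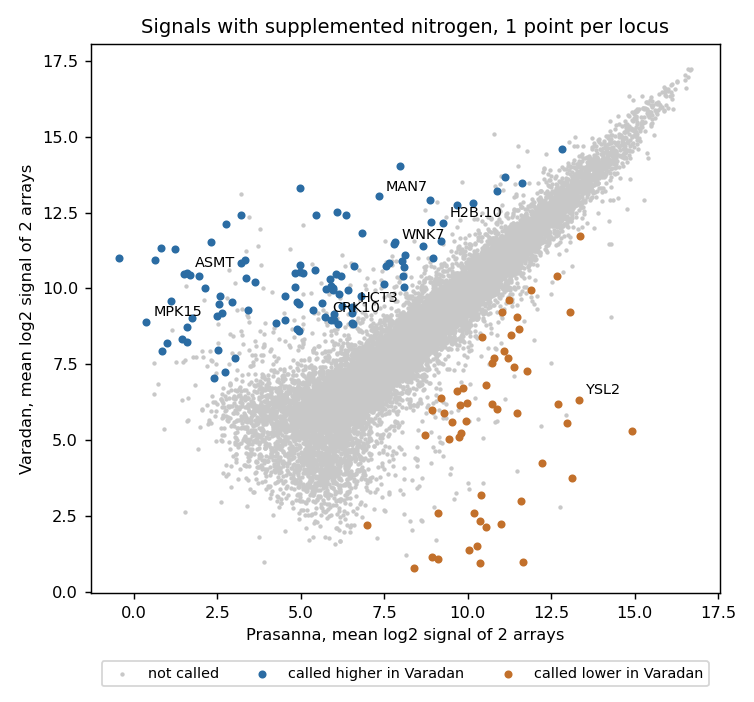
Mean log2 signal of the 2 Prasanna arrays (x axis) against that of the 2 Varadan arrays (y axis) with supplemented nitrogen, 1 point for each of 21510 tested loci. The 100 loci called higher in Varadan lie above the diagonal and the 54 called lower lie below it, and those near the left and lower edges were dim in 1 variety.

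Of the 154 called loci, 8 carry a gene symbol, and 7 of these were higher in Varadan. MPK15, a mitogen-activated protein kinase, gave signals of 1.15 and 1.47 in Prasanna and 471 and 491 in Varadan. It was thus dim in both Prasanna arrays and clearly above the filter in both Varadan arrays, at least 21.5-fold higher (log2 difference 8.53 ± 0.76 SE, adjusted p = 0.00411). ASMT, which makes melatonin in the last step of its synthesis from serotonin, gave signals of 7.09 and 1.29 in Prasanna and 1424 and 1506 in Varadan. This gene was at least 65.6-fold higher in Varadan (log2 difference 8.92 ± 0.97 SE, adjusted p = 0.0113). MAN7, an endo-mannanase that acts on cell wall mannan, gave 168 and 155 in Prasanna against 9045 and 7933 in Varadan, a 52.6-fold difference well above the filter on both sides (log2 5.72 ± 0.87 SE, adjusted p = 0.0434). WNK7, a kinase of the with-no-lysine family, gave 237 and 210 in Prasanna against 2763 and 2868 in Varadan, 12.6-fold higher (log2 3.66 ± 0.33 SE, adjusted p = 0.00474). Its second probe set was called in the same direction, with a log2 difference of 3.85. MAN7 and WNK7 lie near the start of chromosome 11, in a segment with a near-identical copy on chromosome 12, so part of their signal may come from the copies.

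The other 3 named genes that were higher in Varadan differed by smaller factors and were above the filter in both varieties. H2B.10, a histone H2B, gave signals of 638 and 585 in Prasanna and 5169 and 4081 in Varadan (log2 difference 2.91 ± 0.29 SE, adjusted p = 0.00711). CRK10, a cysteine-rich receptor-like kinase, gave 72.0 and 39.0 in Prasanna and 507 and 564 in Varadan (log2 3.34 ± 0.53 SE, adjusted p = 0.0499). HCT3, a hydroxycinnamoyltransferase of phenylpropanoid metabolism, gave 133 and 64.8 in Prasanna and 644 and 699 in Varadan (log2 2.85 ± 0.44 SE, adjusted p = 0.0442). The second probe set of HCT3 was 2.1 higher on the log2 scale and was not called. The calls of H2B.10, CRK10, HCT3, MAN7 and WNK7 were lost whichever 1 of the 4 supplemented-nitrogen arrays was left out, with adjusted p from 0.0577 to 0.277. That of ASMT was lost without Prasanna replicate 2 or either Varadan array, with an adjusted p of up to 0.127. That of MPK15 was lost without either Varadan array, with an adjusted p of up to 0.087.

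YSL2 was the only locus with a symbol that was called lower in Varadan. It encodes a carrier of iron and manganese chelated by nicotianamine that in rice serves long-distance transport through the phloem. Its signals were 7067 and 15132 in Prasanna and 107 and 60.7 in Varadan, so that the bright gene of 1 variety was weak in the other. The log2 difference was -7.01 ± 0.54 SE, or 129-fold, with an adjusted p of 0.00263. The call was lost without Varadan replicate 2, with an adjusted p of 0.0507, and was kept when any other 1 of the 4 arrays was left out. Among the 54 tested genes for metal transport, YSL2 was the 1 called lower, where 0.251% of all tested loci were called lower. None was called higher, and the median difference was -0.05.

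**Figure D2:**
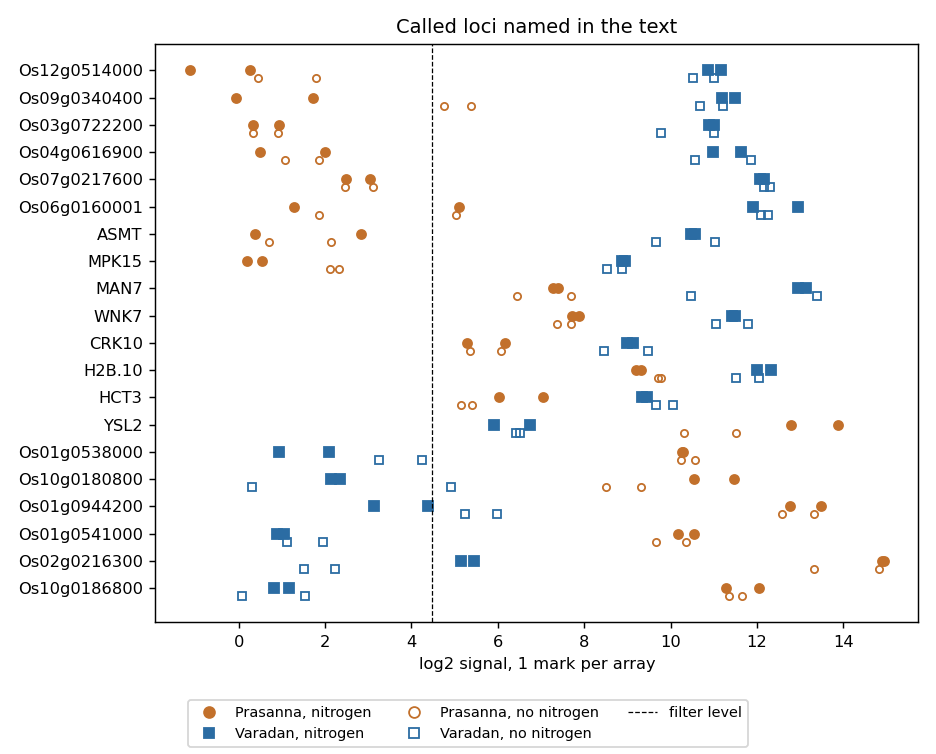
Log2 signal of each array (x axis) for the 20 called loci described by name, with filled marks for supplemented nitrogen and open marks for no nitrogen, circles for Prasanna and squares for Varadan. The dashed line is the filter level, and the filled marks of the varieties do not overlap at any locus.

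Most called loci are known by their locus identifier alone, so no role is given for them. Ranked by log2 difference without the floor, the first 6 of those higher in Varadan were Os12g0514000, Os09g0340400, Os03g0722200, Os04g0616900, Os07g0217600 and Os06g0160001. That order rests on Prasanna signals under the filter level. With the floor the largest positive difference was that of Os09g0319701, at 8.31, named here for that value, and Os08g0156100 and Os04g0338100, at 7.05 and 6.97, also passed 4 of the 6. Os12g0514000 had signals of 0.46 and 1.19 in Prasanna and 2315 and 1862 in Varadan (at least 93.0-fold, adjusted p = 0.00189). Os07g0217600, with 5.59 and 8.24 in Prasanna and 4585 and 4307 in Varadan, was at least 199-fold higher (adjusted p = 0.00154), and its second probe set was called as well, with a log2 difference of 10.12. Os06g0160001 was less even among replicates, at 2.44 and 34.5 in Prasanna and 7929 and 3867 in Varadan (adjusted p = 0.0397). Os09g0340400, which RefSeq lists as a long non-coding RNA, gave 0.96 and 3.27 in Prasanna and 2348 and 2891 in Varadan.

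Ranked in the same way, the first 6 identifier-only loci lower in Varadan were Os10g0186800, Os02g0216300, Os01g0541000, Os01g0944200, Os10g0180800 and Os01g0538000. With the floor Os02g0216300 came first, at -9.61. There Os02g0590400, Os07g0131600 and Os10g0159300, at -7.42, -6.92 and -6.89, passed Os10g0180800, Os01g0541000 and Os01g0538000. Os02g0590400 also passed Os10g0186800, at -7.18. Os02g0216300 was 782-fold lower in Varadan, with 31354 and 30235 against 43.4 and 35.7 (adjusted p = 0.00161). All 3 of its other probe sets were called in the same direction, with log2 differences of -10.63, -9.35 and -6.24. Os01g0944200 gave 6950 and 11420 in Prasanna against 21.0 and 8.81 in Varadan, at least 399-fold lower (adjusted p = 0.00161). Its other 4 probe sets were lower too, from -10.14 to -4.97, and 2 of them were called. Os10g0186800 gave 2479 and 4221 in Prasanna and 2.24 and 1.78 in Varadan (at least 145-fold lower, adjusted p = 0.00161). Some of the 20 called loci described by name remained called whichever array was left out, and others were called in none of those fits. Those known by identifier alone were picked for large differences, so the 20 do not stand for all called loci. Over all called loci, most were called in none of those fits and few in all of them.

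Other probe sets give a limited check of the calls. They were read on the same arrays, at loci selected by the call of the chosen probe set. Other tested probe sets existed for 34 of the 154 called loci, 46 in all. Of these 46, 39 had the sign of the called probe set, 14 were called in that direction and 7 had the opposite sign. At Os07g0468100, chosen here after its values were seen, the chosen probe set was 6.06 higher in Varadan on the log2 scale (adjusted p = 0.00346) and another was 6.04 lower (adjusted p = 0.0045). Probe sets of that locus therefore disagree on direction, and the sequence of the varieties at the probes was not analysed here.

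The arrays without nitrogen hold the same variety contrast in other samples, although both contrasts share 1 estimate of spread. All 154 loci had the same sign there. The arrays of the varieties did not overlap without nitrogen at any of the 100 higher loci, and at 53 of the 54 lower loci. The shares of all tested loci with the same sign or without overlap there were not counted, so these counts have no background. In the test without nitrogen, 108 of the 154 were called in the same direction and none in the other, against 0.758% of all tested loci called. This was 70.1% of the loci called with supplemented nitrogen and 66.3% of the 163 called without nitrogen. On the scale without the floor, MPK15 was 6.48 higher without nitrogen, ASMT 8.93, and WNK7 3.89, while YSL2 was at -4.44, all called. MAN7, at 4.86, and CRK10, at 3.26, were not called without nitrogen (adjusted p = 0.0727 and 0.0515).

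No locus showed a variety difference that depended on nitrogen by the test of that dependence. In limma, 0 of the 21510 loci were called for the difference between the 2 variety differences, 0% of those tested, and 352 had an unadjusted p under 0.05. The smallest adjusted p rounded to 1. Among the 154 called loci, 29 had an unadjusted p under 0.05 for this test. Those loci were chosen for their difference with supplemented nitrogen, which is part of this test, so the 29 are not read as dependence on nitrogen. At YSL2, above the filter level in both varieties, the differences were -7.01 and -4.44, which are set side by side only, since the test of the difference did not call it.

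**Figure D3:**
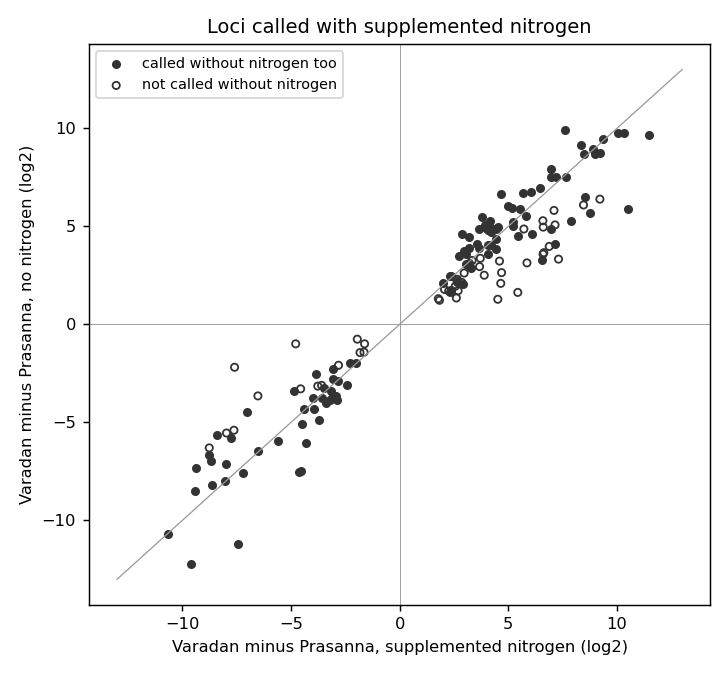
Varadan minus Prasanna log2 difference with supplemented nitrogen (x axis) and without nitrogen (y axis) for the 154 loci called with supplemented nitrogen. All points lie at the lower left or the upper right, with the same sign on both axes, and filled points are the 108 also called without nitrogen.

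Most diterpenoid phytoalexin genes had higher signals in both Varadan arrays, and none passed the test in the fit on 8 arrays. Both Varadan arrays were above both Prasanna arrays at 14 of the 17 tested genes, or 82.4%, against 22.3% of all tested loci, and the median log2 difference was 2.19 against -0.01 over all tested loci. In limma, 0 of the 17 were called in either direction, and 9 higher and 1 lower had an unadjusted p under 0.05. The fit on the 4 supplemented-nitrogen arrays alone called 8 higher and 1 lower, 52.9% of the list against 2.59% of all loci.

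All 7 phytocassane genes were higher in both Varadan arrays. CPS2, the cyclase that opens the phytocassane branch, had log2 signals of 8.49 and 8.97 in Prasanna and 13.13 and 12.06 in Varadan (difference 3.86, adjusted p = 0.529). CYP76M6, a P450 of the same cluster, had 3.93 and 5.68 in Prasanna and 9.05 and 8.87 in Varadan (difference 4.16, adjusted p = 0.307). KSL7, the synthase that takes the CPS2 product on towards phytocassanes, had 8.74 and 9.33 in Prasanna and 10.39 and 10.50 in Varadan. CYP76M8 had 6.53 and 6.48 in Prasanna and 9.59 and 8.92 in Varadan, a difference of 2.75 (adjusted p = 0.306). CYP71Z6, CYP71Z7 and CYP76M5 differed by 2.19, 2.05 and 1.08. Of the 7 genes, 5 were called in the 4-array fit.

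All 5 momilactone genes were likewise higher in both Varadan arrays. CPS4, the cyclase that opens this branch, had log2 signals of 5.87 and 6.97 in Prasanna and 9.44 and 8.89 in Varadan (difference 2.74, adjusted p = 0.688). CYP99A2 had 6.99 and 8.13 in Prasanna and 11.23 and 10.51 in Varadan, a difference of 3.31. The momilactone A synthase OsMAS, KSL4 and CYP99A3 differed by 3.46, 2.73 and 0.90, and replicates of OsMAS and KSL4 in Prasanna lay far apart, at 6.43 and 2.89 and at 5.27 and 2.57. CPS4 and CYP99A2 were called in the 4-array fit.

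Among the other diterpenoid genes the directions were mixed. OsKOL4, a kaurene oxidase-like P450, had log2 signals of 9.89 and 9.75 in Prasanna and 13.82 and 13.22 in Varadan (difference 3.70, adjusted p = 0.125). KSL3, a kaurene synthase-like gene, was the 1 member with lower signals in both Varadan arrays, at 8.12 and 8.97 in Prasanna and 4.36 and 2.62 in Varadan (at least 16.7-fold, adjusted p = 0.0718). OsKOL5 was higher in both Varadan arrays, by 2.15, and the arrays of KSL5 and KSL10 overlapped. Without nitrogen 15 of the 17 genes had a positive difference, and OsKOL4 was at 2.83, with KSL3 called lower there and none called higher. The members of a cluster are not independent of each other, and no test of the list was made.

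**Figure D4:**
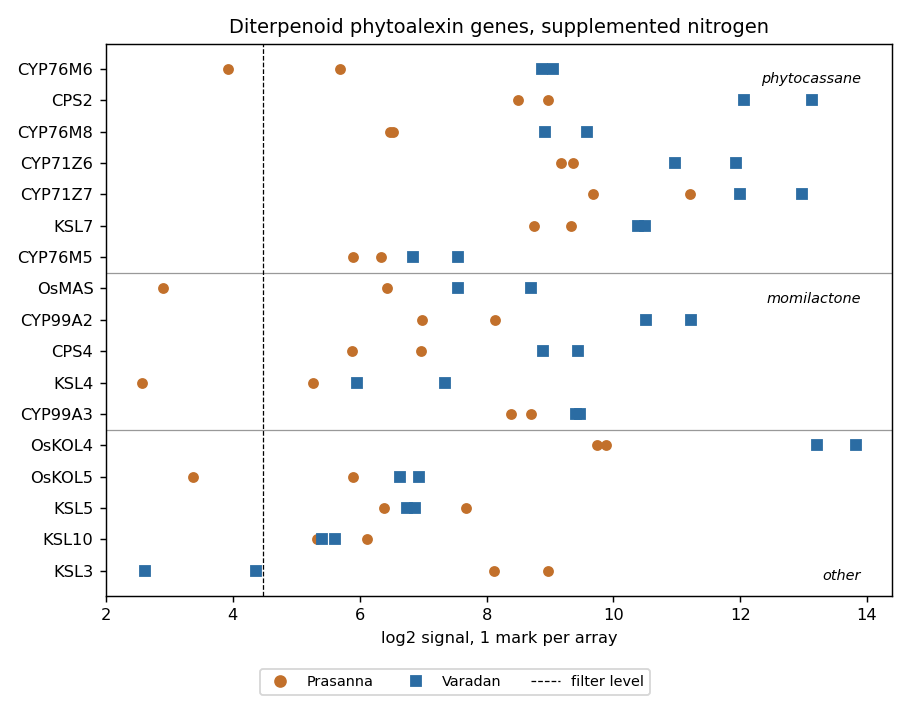
Log2 signal of each supplemented-nitrogen array (x axis) for 17 diterpenoid phytoalexin genes, circles for Prasanna and squares for Varadan, with solid lines between phytocassane, momilactone and other genes and a dashed line at the filter level. The squares lie right of the circles for all 7 phytocassane and all 5 momilactone genes, and left of them for KSL3.

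Neighbouring defence-related lists had 1 call in the 8-array fit. The WRKY factors, regulators of defence genes, had 0 of 6 called in limma and 1 with an unadjusted p under 0.05. WRKY76 had log2 signals of 11.50 and 9.35 in Prasanna and 12.36 and 12.06 in Varadan, and WRKY62 had 8.64 and 7.15 in Prasanna and 8.94 and 8.88 in Varadan. Of 33 defence proteins, 0 were called in limma and 3 higher had an unadjusted p under 0.05. The 4-array fit called 3 higher and 1 lower, 12.1% of the list against 2.59% of all loci. Pir7b, an esterase induced by bacterial infection, had 7.64 and 7.19 in Prasanna and 9.81 and 10.74 in Varadan, and the chitinase Cht10 had 8.02 and 8.14 in Prasanna and 9.07 and 9.41 in Varadan. CRK10 was the 1 call among 19 resistance and receptor genes, where 0.716% of all loci were called. The 4-array fit called 5.26% of this list, whose median difference was -0.08.

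Most genes of the light reactions had higher signals in both Varadan arrays, and none passed the test. Both Varadan arrays were above both Prasanna arrays at 10 of 12 genes, 83.3% against 22.3% of all loci, and the median log2 difference was 0.60. None of the 12 was called in limma and none had an unadjusted p under 0.05. The 4-array fit called 1 gene, 8.33% of the list against 2.59% of all loci. That gene, the antenna protein RCABP69, had log2 signals of 15.15 and 15.32 in Prasanna and 16.47 and 16.19 in Varadan (difference 1.10, adjusted p = 0.687). OEE3, a protein of the oxygen-evolving complex, had 15.09 and 15.04 in Prasanna and 16.04 and 15.67 in Varadan. Without nitrogen, 4 of the 12 had a positive difference. The bright CreX control also lay higher in both Varadan arrays with supplemented nitrogen and overlapped without nitrogen. The part of such an array difference in this list and in the carbon fixation list below was not tested.

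The genes of carbon fixation and photorespiration had 0 of 12 called in limma, none with an unadjusted p under 0.05, and a median difference of 0.41. Both arrays of Varadan were above those of Prasanna at 8 of them, 66.7% against 22.3% of all loci. Without nitrogen, 1 of the 12 had a positive difference. GDCSH, a subunit of the glycine decarboxylase of photorespiration, had 13.25 and 13.51 in Prasanna and 14.71 and 14.01 in Varadan, and the Rubisco small subunit RBCS1 had 15.80 and 16.10 in Prasanna and 16.79 and 16.34 in Varadan. In whole shoots, fewer cells of a type and less RNA per cell cannot be told apart. Markers of the vascular bundle and sclerenchyma ran the other way, with 0 of 4 called. Signals were lower in both Varadan arrays at 3, 75% against 22.5% of all loci. The 4-array fit called 1 of the 4, CESA7, and 2.59% of all loci. CESA7, a secondary wall cellulose synthase, had 10.29 and 10.61 in Prasanna and 8.97 and 8.95 in Varadan (difference -1.49, adjusted p = 0.444), and CESA4 had 10.06 and 9.86 in Prasanna and 9.02 and 8.53 in Varadan.

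Chlorophyll genes gave no calls. Of 17 synthesis enzymes, 0 were called in limma and 3 had an unadjusted p under 0.05, 1 higher and 2 lower. CHL9, a subunit of the magnesium chelatase, had log2 signals of 6.97 and 7.55 in Prasanna and 8.55 and 8.47 in Varadan, while UPD2, a uroporphyrinogen decarboxylase, differed by -0.84 (adjusted p = 0.442). Among 7 senescence and chlorophyll breakdown genes, 0 were called and 1 had an unadjusted p under 0.05. NYC1, a chlorophyll b reductase, had 10.35 and 9.57 in Prasanna and 8.82 and 8.94 in Varadan, and OSL2 had 12.56 and 12.55 in Prasanna and 11.43 and 11.84 in Varadan.

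Genes of nitrogen uptake and assimilation gave no calls at this nitrogen level. Of 5 nitrate genes, 0 were called in limma and none had an unadjusted p under 0.05. The nitrate reductase NR1 had a log2 difference of 0.45 (adjusted p = 0.846). NAR2.2, which assists nitrate carriers of high affinity, was near the bottom of the scale in Prasanna, at 3.68 and 4.20, and had 5.85 and 7.04 in Varadan. Of 17 ammonium genes, 0 were called and 1 had an unadjusted p under 0.05. That was the transporter AMT3-3, with 6.10 and 3.99 in Prasanna and 7.96 and 8.19 in Varadan (difference 3.03, adjusted p = 0.241). AMT3-1, another transporter of that family, had 3.87 and 6.79 in Prasanna and 7.60 and 6.84 in Varadan. The glutamine synthetases, glutamate synthases and glutamate dehydrogenases among these 17 included no call.

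Of 10 genes of urea transport, purine recycling and nitrogen regulation, 0 were called in limma and 1 had an unadjusted p under 0.05. Both Varadan arrays were below both Prasanna arrays at 6, 60% against 22.5% of all loci. The high-affinity urea carrier DUR3 had 6.48 and 4.97 in Prasanna and 3.41 and 3.17 in Varadan, both under the filter level, which makes at least 2.37-fold (adjusted p = 0.258). NLP1, a nitrate-responsive transcription factor, had 9.91 and 9.89 in Prasanna and 9.26 and 9.29 in Varadan. The median of the 10 was -0.28. Amino acid carriers could not be found by symbol and are not analysed here.

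Genes for traits that often separate rice varieties had no calls either. Of 27 genes of heading date and the clock, 0 were called in limma and 1 had an unadjusted p under 0.05. MADS14, which marks the turn to flowering, had log2 signals of 8.15 and 8.44 in Prasanna and 6.51 and 7.31 in Varadan (difference -1.38, adjusted p = 0.324), and the heading date gene Hd1 had 7.82 and 6.61 in Prasanna and 6.02 and 6.18 in Varadan. Of 18 stature and gibberellin genes, 0 were called and 1 had an unadjusted p under 0.05. SLR1, the DELLA repressor of gibberellin signalling, had 10.80 and 10.58 in Prasanna and 10.03 and 9.88 in Varadan, and CYP714C2 had 7.15 and 7.58 in Prasanna and 7.75 and 8.82 in Varadan. The 20 brassinosteroid genes had 0 calls and none with an unadjusted p under 0.05. D2, an enzyme of brassinosteroid synthesis, differed by -0.61 and the receptor BRL2 by 1.37.

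The tillering and strigolactone genes leaned lower in Varadan, with a median of -0.35. Both Varadan arrays were below both Prasanna arrays at 8 of 15, 53.3% against 22.5% of all loci. In limma 0 of the 15 were called and 3 lower had an unadjusted p under 0.05. The 4-array fit called 1 gene, 6.67% of the list against 2.59% of all loci. That gene, NAL1, which sets leaf width and vein number, had log2 signals of 11.67 and 11.57 in Prasanna and 9.67 and 10.18 in Varadan (difference -1.70, adjusted p = 0.626). TAC1, which controls tiller angle, had 7.54 and 8.12 in Prasanna and 1.90 and 5.82 in Varadan (difference -2.68 with the floor, adjusted p = 0.379 without it).

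From the transport and stress lists, single genes are given as values. SWEET13, a sucrose exporter, had log2 signals of 10.38 and 10.18 in Prasanna and 12.19 and 12.39 in Varadan, a difference of 2.01 (adjusted p = 0.495). The 4-array fit called it, 1 call in 44 starch and sucrose genes, or 2.27% against 2.59% of all loci. Wx, the granule-bound starch synthase, had 8.21 and 7.09 in Prasanna and 5.30 and 6.62 in Varadan. Its other probe sets disagreed on direction, with log2 differences of 0.64 and -0.38. The plasma membrane aquaporin PIP2-7 had 12.75 and 13.60 in Prasanna and 14.91 and 14.49 in Varadan, and NIP1-2 had 7.0 and 7.13 in Prasanna and 4.90 and 6.35 in Varadan. The other probe set of NIP1-2 had the opposite sign, with a log2 difference of 1.01. Neither the starch and sucrose list nor the aquaporin list had a call in the 8-array fit. There 3 of 44 and 2 of 27 genes had an unadjusted p under 0.05, against 1585 of all 21510 tested loci. Of 32 potassium and sodium carriers and channels, 0 were called in limma, and 2 higher and 2 lower had an unadjusted p under 0.05. The list leaned lower in Varadan, with a median of -0.26. Both arrays were lower at 10 genes, 31.2% against 22.5% of all loci, and both were higher at 7, 21.9% against 22.3%. The 4-array fit called 1 higher and 3 lower, 12.5% of the list against 2.59% of all loci. The carriers HAK17, with 10.59 and 10.66 in Prasanna and 11.91 and 12.82 in Varadan, and HAK10, with 10.89 and 10.63 in Prasanna and 11.72 and 11.60 in Varadan, had the smallest p. The sodium carrier HKT1;1 had 10.51 and 9.93 in Prasanna and 8.80 and 8.41 in Varadan, and HAK18 had 12.03 and 12.10 in Prasanna and 10.78 and 10.77 in Varadan, both called lower in the 4-array fit.

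A pair of stress genes was dim in Varadan and bright in Prasanna without passing the 8-array test. HSP16.0, a small heat shock protein, had log2 signals of 10.61 and 10.29 in Prasanna and 3.70 and 3.51 in Varadan (at least 62.6-fold, adjusted p = 0.0506). The phi-class glutathione S-transferase GSTF1 had 10.09 and 9.07 in Prasanna and 3.18 and 2.96 in Varadan (at least 34.3-fold, adjusted p = 0.286). Both were called in the fit on 4 arrays, and their lists had no other call there. That was 1 of 47 heat shock genes, 2.13%, and 1 of 6 transferases, 16.7%, against 2.59% of all loci.

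Called loci were spread over all 12 chromosomes, unevenly. Of 1715 tested loci on chromosome 6, 22 were called higher and 4 lower in Varadan, or 1.52% against 0.716% for all loci. Chromosome 9 had 12 higher and 2 lower, 1.17%, and chromosome 3 had 3 of each, 0.211%. On chromosomes 2, 5 and 10 more loci were lower than higher in Varadan, and on chromosomes 3 and 8 the counts were equal. The 4-array fit kept more lower loci on chromosome 5, with 16 higher and 23 lower, and on chromosome 10, with 15 and 16. It did not keep the order on chromosome 2, with 23 higher and 22 lower. Nor were the counts equal there on chromosome 3, with 21 and 11, or on chromosome 8, with 18 and 8. In that fit the share called was 4.52% on chromosome 9, 4.09% on chromosome 12 and 3.85% on chromosome 6. In the order of RefSeq, which placed 125 of the 154, no 3 adjoining tested loci were all called. Allowing up to 10 tested loci between calls gave 5 stretches with 15 calls, and 3 of these stretches, on chromosomes 4, 6 and 9, held only loci higher in Varadan. The stretch on chromosome 4 held Os04g0477900 and Os04g0478000, higher by 5.82 and 5.70 on the log2 scale. The stretch on chromosome 7 joined Os07g0110100, at -7.19, with Os07g0110800 and Os07g0110900, higher by 4.04 and 2.37. The allowance of 10 was chosen after the calls were seen.

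**Figure D5:**
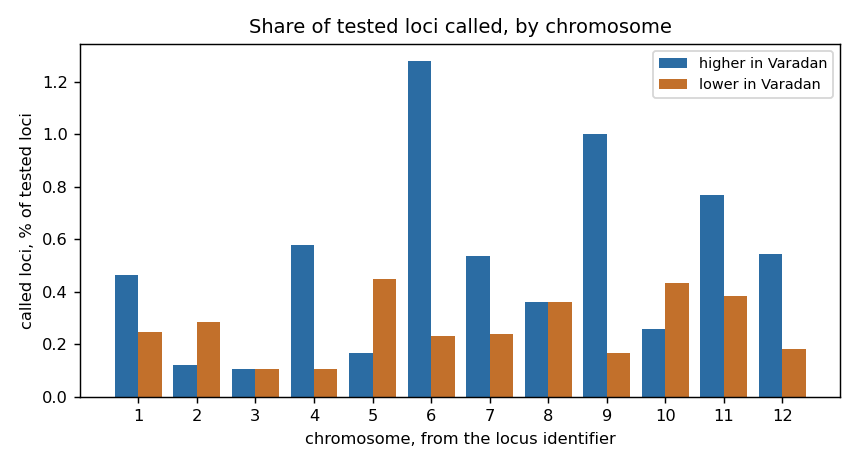
Share of tested loci called higher (blue) or lower (orange) in Varadan on each chromosome, in percent. Chromosome 6 reaches 1.28% for higher loci and chromosome 3 has 0.105% in each direction.

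The called loci were less well annotated than the rest. A gene symbol was held by 5.19% of them and by 11.6% of tested loci. RefSeq did not list 18.8% of the called loci, against 9.12% of tested loci. Of those it lists, 9 of 125 called loci were long non-coding RNAs, 7.2%, against 1.91% of tested loci, and 113 were protein coding. The median of the mean log2 signal over the 8 arrays was 7.79 for called and 9.06 for tested loci. These shares are descriptions, and a locus that is dim in 1 variety has a lower mean by construction.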

How the data were processed

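Shoot RNA was measured on Affymetrix rice arrays, 8 in all. The authors deposited log2 signals per probe set, made with MAS5 per the submitters' processing notes, and a second table of linear signal intensity; the version, probe annotation and genome build behind them are not stated in the labels or file headers used. The log2 of the second table differed from the first by at most 2.96e-08, and the trimmed mean (2% off each end) of each array's linear signals was 500.

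Probe sets other than 187 Affymetrix control and reporter sets with a mean log2 over 8 arrays of at least 4.48, the 40th percentile, were tested, 34333 of 57381. limma 3.58.1 (R 4.3.3) fitted 1 mean per group over the 8 arrays (4 residual degrees of freedom), with eBayes and a trend, two-sided, and Benjamini-Hochberg adjustment over all tested probe sets. A call is an adjusted p under 0.05. A locus was read at the probe set with the highest mean log2 among those the file pairs with 1 gene. Symbols came from the RefSeq gene table (assembly ASM3414082v1) through the gene ID in the file. The fit was tested on simulated data.

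Named genes were, per direction, the 15 loci with a symbol and the 6 without that were called with non-overlapping arrays, a higher mean at or above the median tested signal and the largest differences, then up to 4 called members of each list, or the 2 with the smallest p where none was called. Only 7 and 1 symbol-bearing loci met this, and the places left went to the smallest unadjusted p, given as values. The members and lists were chosen with earlier results of these data known. Alternatives were other sample sets, a replicate block, other normalizations, floors, filters, variance models and thresholds. The precision is limited by the number of arrays.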

Additional observations from a re-analysis of the deposited data

How the results depend on the processing

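No alternative turned the direction of a called locus among the 154 or of any described gene called in either fit. The count of called loci moved by over 1.5 times in some settings, against 154 loci (238 probe sets): 557 (834) in the 4 supplemented-nitrogen arrays alone, 489 (739) without the first no-nitrogen array of each variety, 258 (409) with signals floored at the filter level, 243 (390) with log2(signal + 16), 358 (572) with array weights and 89 (129) with the 60th percentile filter, where 36 of the 154 were not tested. Leaving out 1 supplemented-nitrogen array gave 23 to 54 loci (42 to 86 probe sets), of which 19 to 48 were among the 154. The replicate block left 157 loci (243 probe sets), with 133 of the 154; those of MAN7, CRK10, HCT3 and Os06g0160001 were lost, with adjusted p from 0.0532 to 0.0646. Within the 4 supplemented-nitrogen arrays it gave 1514 (2151). Deviations of same-numbered arrays of the 2 varieties correlated at 0.02 with supplemented nitrogen and 0.46 without, and over the 6 pairs of groups from -0.04 to 0.46, so the titles' numbers are not taken as pairs. Of the 154 loci, 108 were called without nitrogen, and 71 when Prasanna no-nitrogen replicate 1 was left out, with 101 when the first no-nitrogen array of each variety was. The cause of these moves was not tested. The difference between nitrogen levels had 0 calls in every setting run for it. Signals under 22.3 have no dependable order, which limits the folds of dim loci.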

Other observations

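Further lists are described as values, with no test of the list. Among 40 genes of phenylpropanoids and serotonin, ASMT and HCT3 were the 2 calls, where 0.716% of all loci were called. The fit on 4 arrays called 10% of that list against 2.59% of all loci. Of 29 beta-glucosidases, 0 were called in limma and 3 had an unadjusted p under 0.05. The fit on 4 arrays called 3, or 10.3% against 2.59% of all loci. BGLU5 had log2 signals of 9.28 and 10.00 in Prasanna and 11.13 and 11.24 in Varadan, and BGLU13 had 9.28 and 9.43 in Prasanna and 10.50 and 10.97 in Varadan. Of 79 cell wall genes, 0 were called in limma and 7 had an unadjusted p under 0.05; TBL3 and GLU15 led them, at 3.28 and 2.02 and at 3.25 and 2.43 in Prasanna, below the filter level, and at 6.42 and 5.76 and at 6.32 and 5.86 in Varadan. Of 51 cell cycle genes, 0 were called, and MCM9, of the replicative helicase family, had 4.59 and 5.53 in Prasanna and 8.24 and 8.26 in Varadan (difference 3.19, adjusted p = 0.075). Of 31 jasmonate genes, 0 were called and none had an unadjusted p under 0.05. JAZ4, a repressor of jasmonate signalling, had 12.05 and 11.71 in Prasanna and 12.73 and 12.68 in Varadan.

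Other genes with a symbol came close to the threshold in the 8-array fit without a call, and the 4 given here were all called in the 4-array fit, with adjusted p from 0.00162 to 0.0186. The glutaredoxin GRXS4 had log2 signals of 10.76 and 10.64 in Prasanna and 8.45 and 8.64 in Varadan (difference -2.15, adjusted p = 0.0997), but 2 of its other probe sets had the opposite sign. MYBS1, a MYB factor of sugar-regulated amylase genes, had 11.48 and 11.18 in Prasanna and 10.02 and 9.62 in Varadan (difference -1.51, adjusted p = 0.0866). CML1, a calmodulin-like protein, had 10.98 and 10.87 in Prasanna and 12.61 and 12.63 in Varadan. OC-X had 7.13 and 5.89 in Prasanna and 10.57 and 11.11 in Varadan (difference 4.33, adjusted p = 0.0683) and differed by 4.22 without nitrogen.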
